A study of Mus musculus with 24 samples.

Results

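The direct comparison of 2 deletion lines within 1 batch of the RNA-seq experiment is described here, WstfΔ against Rsf1Δ, in mouse embryonic stem cells (mESCs). It rests on 4 of the 24 RNA-seq libraries of the series, 2 of each line, chosen by their labels in batch A. The 2 WT libraries of the same batch were used only to say which line had moved. All 3 groups have the 129S6/SvEvTac background, grew in serum with LIF on gelatin and received no treatment. WstfΔ carries loss-of-function mutations of Baz1b, the gene that encodes WSTF, and Rsf1Δ carries them in Rsf1. The paper detected neither protein in its own deletion line by western blot. Both deletions were made with CRISPR–Cas9, WT is the unedited parental line, and each deletion line is 1 clone, so that the deletion and other differences of the clone cannot be told apart.

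WSTF and RSF1 are accessory subunits of ISWI chromatin remodelers. Each pairs with the ATPase SNF2H, encoded by Smarca5, which slides and spaces nucleosomes: WSTF forms the WICH complex, known for its place at replication foci and for phosphorylating the histone variant H2A.X, and RSF1 forms the RSF complex, known for assembling spaced nucleosome arrays and for its role at centromeres. A comparison of WstfΔ with Rsf1Δ asks which genes separate the loss of one SNF2H complex from the loss of the other.

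The Rsf1Δ libraries held 23140911 and 24298767 counts, the WT libraries 24711280 and 22854001, and the WstfΔ libraries 13619367 and 13417755, so that low genes were measured least precisely in WstfΔ. Replicates of a line had a Pearson's r of at least 0.9967 on log2 values across genes, which are not independent replicates. Pluripotency markers were high in every library, with Pou5f1 between 1048 and 1397 and Nanog between 373 and 644 normalized CPM (counts-per-million of each library after scaling between libraries). Of the other cell types these cultures could hold, primitive endoderm was visible in all 3 groups: Gata4 stood at 97.1 and 100.3 normalized CPM in WT, 40.9 and 38.3 in Rsf1Δ, and 30.1 and 35.1 in WstfΔ. Fewer cells of a type and less RNA per cell cannot be told apart in such bulk samples.

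The targeted genes followed the labels. Baz1b (chr5:135187323-135246131, mm10) stood at 234 and 262 normalized CPM in Rsf1Δ and at 46.1 and 50.8 in WstfΔ, beside 243 and 269 in WT. Its log2 fold change of WstfΔ over Rsf1Δ was -2.36 (SE 0.09, adjusted p = 2.9e-17). Rsf1 (chr7:97579870-97692782) stood at 23.2 and 22.9 in Rsf1Δ and at 125 and 124 in WstfΔ, beside 104 and 117 in WT, with a log2 fold change of 2.43 (SE 0.09, adjusted p = 1.9e-17). Each gene was reduced in its own line and close to WT in the other. Of the other 11 genes for ISWI subunits and ATPases, none was called, and the summed level of all 13 lay between 2677.9 and 2806.9 in the 4 libraries.

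Between the lines, 1221 of 15682 tested genes were differentially expressed (DEGs), with a change of over 2-fold and an adjusted p under 0.01. These are 7.79% of the genes tested. In WstfΔ, 725 genes (4.62%) were higher and 496 (3.16%) were lower than in Rsf1Δ. In all 1221 both WstfΔ libraries lay beyond both Rsf1Δ libraries, as they did in 75.5% of the genes tested. Without a minimum fold change, 2740 genes (17.5%) were higher and 2478 (15.8%) lower at the same adjusted p. Tested against a change of 2-fold itself, 273 genes passed.

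**Figure D1:**
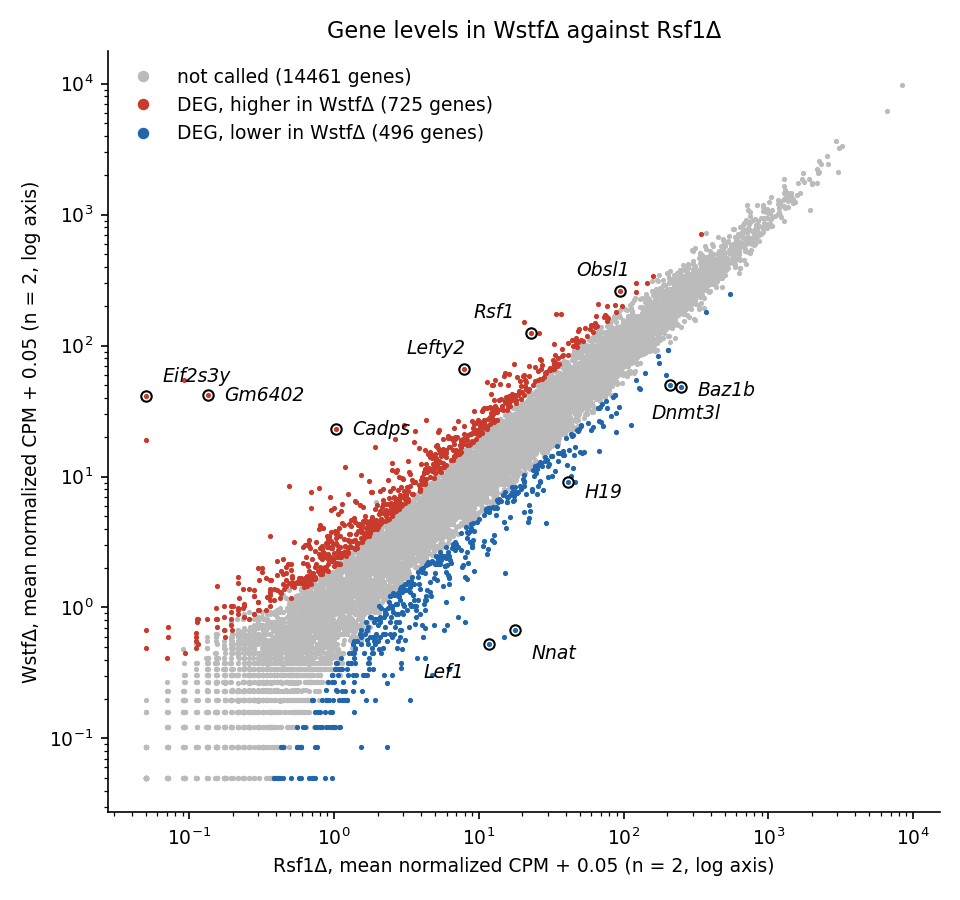
Mean normalized CPM of each tested gene in Rsf1Δ (horizontal) and WstfΔ (vertical), both on log axes after adding 0.05, with 2 libraries per mean. Red points are the 725 DEGs higher in WstfΔ, blue points the 496 lower, and grey points the 14461 genes not called; circles mark named genes, among them the targeted genes Baz1b and Rsf1 on opposite sides of the diagonal.

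WT shows which line moved. Against the same WT libraries, 1638 genes (10.4%) were DEGs in WstfΔ and 927 (5.91%) in Rsf1Δ. Of the 1221 DEGs between the lines, 598 (49%) also differed from WT in WstfΔ and not in Rsf1Δ, and 147 (12%) in Rsf1Δ and not in WstfΔ. Another 76 differed from WT in the same direction in both lines and 14 in opposite directions. The remaining 386 (31.6%) were called in neither line against WT.

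The balance differed by direction. Among genes lower in WstfΔ, 272 had moved in WstfΔ alone, 70 had moved the same way in both lines and 21 had moved in Rsf1Δ alone. Among genes higher in WstfΔ, 326 had moved in WstfΔ alone, 126 in Rsf1Δ alone and 6 in the same direction in both. By means alone, with no threshold, the lines stood on opposite sides of WT in 751 DEGs, both lay below WT in 286 and both above it in 184. The WT libraries of batch A were not typical of all WT libraries for some genes below, so the range over the 11 WT libraries of all 5 batches is given for some of them. In 632 DEGs the WstfΔ mean lay outside that range and the Rsf1Δ mean within it, in 189 the reverse held, in 233 both lay outside and in 167 both lay within.

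**Figure D2:**
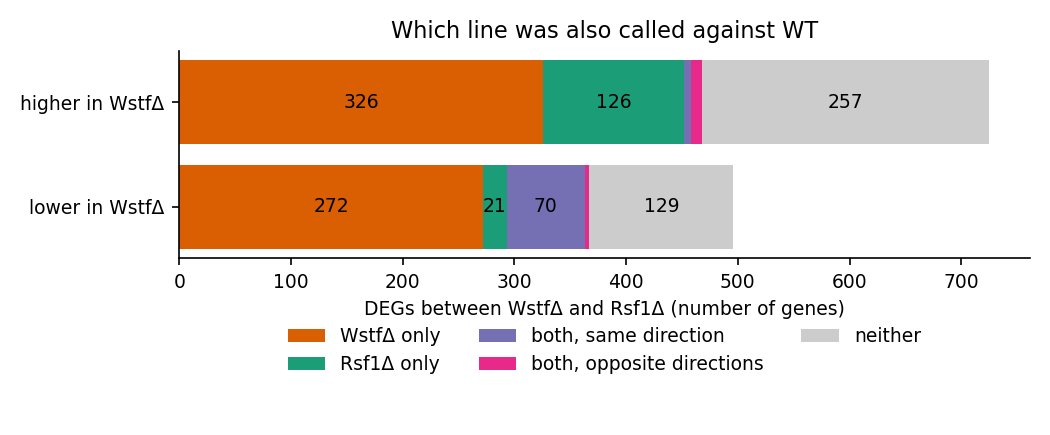
Number of DEGs between WstfΔ and Rsf1Δ by the line that was also called against WT, with the genes higher in WstfΔ above and those lower below. The segment of genes moved in WstfΔ alone holds 326 and 272 genes, that of Rsf1Δ alone 126 and 21; unlabelled segments hold fewer than 20 genes.

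The 12 largest increases in WstfΔ, among DEGs with a mean of at least 5 normalized CPM in the higher line, were in genes that were low in Rsf1Δ, with Lefty2, at 8.12 and 7.69 normalized CPM, the highest of them there. Apart from Y-linked genes, described with the chromosomes below, the largest was Gm6402, a transcribed pseudogene on chromosome 17, with 0.129 and 0.0407 normalized CPM in Rsf1Δ and 41.7 and 42.8 in WstfΔ. Its Rsf1Δ libraries held 4 counts in all, which gives a ratio of 505 with a counting interval of 197 to 1858, and reads of a near-identical copy could be counted there. Cadps, a regulator of vesicle release, rose from 0.902 and 1.06 to 23.7 and 22.5 (log2 fold change 4.55, SE 0.22, adjusted p = 6.5e-15), with WT at 0.997 and 1.08. Ndufa4l2, known as a hypoxia-inducible mitochondrial protein, stood at 0.472 and 0.407 in Rsf1Δ and 9.75 and 6.95 in WstfΔ (log2 fold change 4.23, SE 0.35). Neither gene was called against WT in Rsf1Δ, and both were in WstfΔ.

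Lefty2, described with Nodal signalling, was separated by moves of both lines. Klhdc7a, Lims2 and the cation channel gene Trpm1 were higher in WstfΔ by log2 fold changes of 3.35, 3.16 and 3.12, with Rsf1Δ not called against WT.

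Among the largest decreases by the same minimum, several genes were close to silent in WstfΔ. Ccno, needed for multiciliated cells, fell from 15.5 and 14.2 in Rsf1Δ to 0.433 and 0.658 in WstfΔ, with WT between them at 6.94 and 5.77 (log2 fold change -4.75, SE 0.24, adjusted p = 1.8e-14). Enpp2, the enzyme autotaxin that makes lysophosphatidic acid, stood at 13.1 and 11.7 in WT, 6.44 and 5.98 in Rsf1Δ and 0.289 and 0.293 in WstfΔ (log2 fold change -4.39, SE 0.35). Wt1, a zinc finger factor of kidney and gonad, was at WT level in Rsf1Δ with 8.93 and 7.12 and at 0.867 and 0.585 in WstfΔ. Vrtn, Col6a5, 1700030C10Rik, Neurog3, Nckap1l and Sema6a were lower in WstfΔ by log2 fold changes between -3.20 and -2.47.

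Among genes of high level the differences were smaller. Scd2, a fatty acid desaturase, had 339 and 343 normalized CPM in Rsf1Δ and 724 and 692 in WstfΔ, beside 295 and 300 in WT (log2 fold change 1.05, SE 0.06). The Wnt antagonist Sfrp1, the taurine transporter Slc6a6, the tetraspanin Cd81, Sec14l1 and the cytoskeletal adaptor Obsl1 were higher by log2 fold changes between 1.06 and 1.48. Of these 6 genes, Scd2, Slc6a6, Sfrp1 and Obsl1 were also called above WT in WstfΔ and none was called in Rsf1Δ.

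Most of the germline genes listed were lower in WstfΔ than in Rsf1Δ. In mESCs most such genes are held low by promoter DNA methylation and by repressor complexes that read the E-box CACGTG. Of 16 listed and tested, 9 were lower in WstfΔ, none was higher, and 7 were not called (median log2 fold change -1.10, against 0 over all genes tested, of which 3.16% were lower). Without a minimum fold change 12 were lower and 1, Sycp3, was higher, against 15.8% and 17.5% of all genes.

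Fkbp6 was the one germline gene on the list called against WT in both lines, in opposite directions. This co-chaperone of the piRNA pathway, which lies beside Baz1b (chr5:135291704-135351809), had 2.19 and 1.77 normalized CPM in WT, 4.68 and 4.97 in Rsf1Δ and 0.795 and 0.585 in WstfΔ. Its log2 fold change was -2.80 (SE 0.26, adjusted p = 3.8e-09). Slc25a31, the ADP/ATP carrier of the testis, had 6.9 and 6.12 in WT, 13.1 and 12.2 in Rsf1Δ and 2.96 and 3.29 in WstfΔ (log2 fold change -2.02, SE 0.16). Over the 11 WT libraries Slc25a31 ranged from 3.02 to 7.08, which held the WstfΔ mean of 3.13 and not the Rsf1Δ mean of 12.7. No library of one line overlapped with the other in either gene, as held for 75.5% of the genes tested.

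Taf7l, a TFIID subunit of germ cells, stood at 10.7 and 10.7 in Rsf1Δ and at 2.82 and 2.93 in WstfΔ, beside 6.34 and 8.4 in WT (log2 fold change -1.90, SE 0.19). Sycp1, which joins paired chromosomes in meiosis, stood at 22.8 and 23.7 in Rsf1Δ and at 7.59 and 7.83 in WstfΔ (log2 fold change -1.59, SE 0.13). In both, WstfΔ and not Rsf1Δ was called against WT. Tex13b was lower by -1.81 (SE 0.42, adjusted p = 0.00098), but without WstfΔ replicate 1 its log2 fold change was -1.34 with an adjusted p of 0.0418.

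In Dazl, an RNA-binding regulator of germ cell fate, the difference came from Rsf1Δ. It had 15.2 and 13.5 normalized CPM in WT, 48.5 and 38.8 in Rsf1Δ and 23.1 and 18.8 in WstfΔ (log2 fold change -1.06, SE 0.10, adjusted p = 6e-09). Without Rsf1Δ replicate 1 or WstfΔ replicate 2 its log2 fold change was -0.89 or -0.92, under the 2-fold minimum. Over the 11 WT libraries it ranged from 13.5 to 23.7, a range that held both WstfΔ libraries and neither Rsf1Δ library. Ddx4, the germ cell helicase VASA and the member with the highest level, showed the reverse: 62 and 65 in WT, 71 and 66.6 in Rsf1Δ, and 35.4 and 32.3 in WstfΔ (log2 fold change -1.02, SE 0.07, and -0.98 or -0.96 without the same libraries). The other 2 called members, Stk31 and Mael, had log2 fold changes of -1.22 and -1.14.

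**Figure D3:**
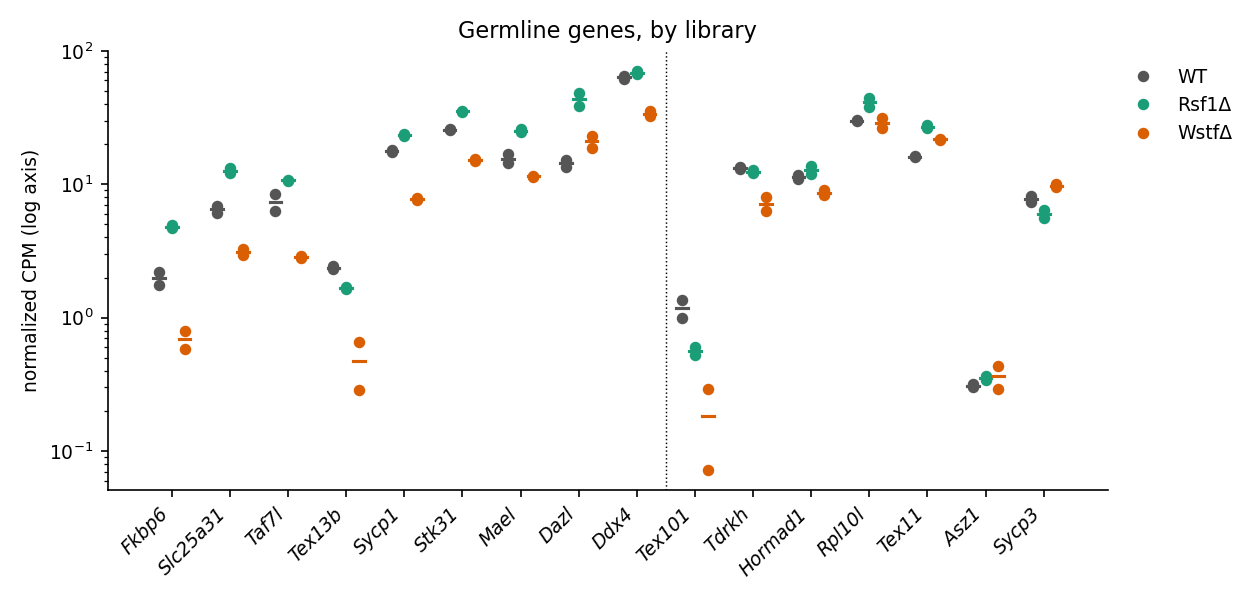
Normalized CPM (log axis) of the 16 germline genes in the 2 WT, 2 Rsf1Δ and 2 WstfΔ libraries of batch A, with points for libraries and bars for means. The 9 genes left of the dotted line were lower in WstfΔ than in Rsf1Δ, with the WstfΔ points below the Rsf1Δ points in each; Sycp3, at the far right, lies the other way.

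The promoters of the listed germline genes were searched for the E-box named above. Repressors of such genes are known to read it, so its presence is no separate support for the calls. RefSeq promoter windows (GRCm38.p6, 250 bases before to 50 after the start) were held for 15 of the 16 genes, and the E-box CACGTG, which reads alike on both strands, was present in 9 of them. By call, 7 of the 9 genes lower in WstfΔ held it and 2 of 6 not called, a difference that was not tested. The motif was present in 7.15% of all 32851 windows, in 11.4% of the tested genes with a window, in 13.0% of DEGs lower in WstfΔ and in 7.89% of DEGs higher. A gene was counted if any of its windows held the motif, and a match describes the letters only. Windows of the 4 called genes with the largest fold change that held the motif are given first, with the first of 2 overlapping windows for Fkbp6, then that of Dazl, which held none, 5′ to 3′ on the gene's strand with CACGTG in capitals.
Fkbp6, chr5:135349995-135350294, minus strand: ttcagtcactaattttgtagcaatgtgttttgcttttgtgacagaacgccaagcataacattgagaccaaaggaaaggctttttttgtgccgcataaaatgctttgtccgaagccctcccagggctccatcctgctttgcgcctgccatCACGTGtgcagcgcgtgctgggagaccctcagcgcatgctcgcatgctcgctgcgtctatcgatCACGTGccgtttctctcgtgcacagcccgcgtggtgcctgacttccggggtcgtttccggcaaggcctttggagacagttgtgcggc
Slc25a31, chr3:40708621-40708920, plus strand: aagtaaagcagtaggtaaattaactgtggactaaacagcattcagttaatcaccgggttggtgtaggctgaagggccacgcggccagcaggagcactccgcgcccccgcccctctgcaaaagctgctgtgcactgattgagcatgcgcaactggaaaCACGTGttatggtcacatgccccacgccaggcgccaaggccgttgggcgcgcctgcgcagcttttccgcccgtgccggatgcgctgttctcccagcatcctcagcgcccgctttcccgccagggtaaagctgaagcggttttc
Taf7l, chrX:134476441-134476740, minus strand: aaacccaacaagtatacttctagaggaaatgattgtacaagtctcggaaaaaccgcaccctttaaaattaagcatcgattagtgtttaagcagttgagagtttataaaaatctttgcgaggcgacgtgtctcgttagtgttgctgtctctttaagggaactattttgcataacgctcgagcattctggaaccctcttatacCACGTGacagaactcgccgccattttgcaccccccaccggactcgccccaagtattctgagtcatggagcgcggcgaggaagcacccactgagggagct
Sycp1, chr3:102936051-102936350, minus strand: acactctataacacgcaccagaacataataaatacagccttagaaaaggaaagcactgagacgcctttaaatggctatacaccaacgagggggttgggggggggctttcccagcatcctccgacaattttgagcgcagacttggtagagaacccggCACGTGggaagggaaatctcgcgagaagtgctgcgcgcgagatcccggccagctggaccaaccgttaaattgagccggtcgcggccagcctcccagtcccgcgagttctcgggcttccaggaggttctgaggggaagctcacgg
Dazl, chr17:50293571-50293870, minus strand: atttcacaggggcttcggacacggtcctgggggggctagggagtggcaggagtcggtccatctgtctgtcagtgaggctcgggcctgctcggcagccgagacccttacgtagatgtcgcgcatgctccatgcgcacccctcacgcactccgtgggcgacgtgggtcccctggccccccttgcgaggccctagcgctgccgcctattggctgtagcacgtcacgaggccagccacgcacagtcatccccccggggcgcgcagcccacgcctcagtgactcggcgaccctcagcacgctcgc
Counted from the start, with -1 as the last base before it, the motif began at -101 and -37 in Fkbp6, -93 in Slc25a31, -49 in Taf7l and -94 in Sycp1.

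The de novo DNA methylation genes separated the lines in different ways. Dnmt3a and Dnmt3b encode the enzymes that set new DNA methylation and Dnmt3l their catalytically inactive cofactor. Dnmt3a had 202 and 198 normalized CPM in WT, 358 and 379 in Rsf1Δ and 177 and 184 in WstfΔ (log2 fold change -1.03, SE 0.06, adjusted p = 1.9e-13), and -0.99 without Rsf1Δ replicate 2. The Rsf1Δ libraries lay above the range of the 11 WT libraries, 130 to 202, and the WstfΔ libraries within it. Dnmt3l had 342 and 338 in WT, 205 and 212 in Rsf1Δ and 48.6 and 51.8 in WstfΔ (log2 fold change -2.05, SE 0.06, adjusted p = 5.2e-19). Here WstfΔ lay below the WT range of 194 to 348 and Rsf1Δ within it.

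Dnmt3b stood at 304 and 316 in Rsf1Δ and at 157 in both WstfΔ libraries, a log2 fold change of -0.98 that narrowly missed the minimum (SE 0.06, adjusted p = 7.9e-13). Of 11 tested genes listed for DNA methylation and imprint maintenance, Dnmt3l was the one DEG, against 7.79% of all genes. At the adjusted p alone 5 of them were lower and 1 higher, against 15.8% and 17.5%. Dnmt3a and Dnmt3b are counted with the formative genes instead. Trim28 and Zfp57, which protect imprints, had log2 fold changes of -0.53 and -0.61 with adjusted p of 4.3e-09 and 3.6e-07, and Zfp57 was at WT level in WstfΔ (441 and 458, against 438 and 451).

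Some genes of formative and primed pluripotency, which mark the exit from the naive state, were lower in WstfΔ. Of 14 tested, 5 were lower, none was higher and 9 were not called (median log2 fold change -0.74), against 3.16% lower over all genes. The 5 were Zic2, Sall2, Otx2, Pou3f1 and the Dnmt3a described above. At the adjusted p alone 8 were lower and 1 higher, against 15.8% and 17.5% of all genes. Otx2, a driver of the formative state, had 32 and 31.4 normalized CPM in WT, 26 and 25.1 in Rsf1Δ and 11.7 and 12.5 in WstfΔ (log2 fold change -1.08, SE 0.09). Sall2 had 30.2 in both Rsf1Δ libraries and 9.97 and 9.8 in WstfΔ (log2 fold change -1.61, SE 0.12). Pou3f1 had -1.01, and -0.90 or -0.91 without Rsf1Δ replicate 1 or WstfΔ replicate 1. The 4 genes other than Dnmt3a had fallen from WT in WstfΔ and were not called in Rsf1Δ.

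Several naive pluripotency genes stood higher in WstfΔ, all by less than 2-fold. Of 16 core and naive genes none was a DEG upward, while 9 were higher and 3 lower without a minimum fold change, against 17.5% and 15.8% of all genes (median log2 fold change 0.25). Tfcp2l1, a naive-state transcription factor, had 542 and 540 normalized CPM in WT, 674 and 761 in Rsf1Δ and 1189 and 1184 in WstfΔ (log2 fold change 0.72, SE 0.09, adjusted p = 1.5e-07). Pou5f1 had a log2 fold change of -0.00 (SE 0.07). The single DEG, Dppa3, which guards maternal methylation in the early embryo, was lower, with 2.79 and 3.05 in Rsf1Δ and 0.65 and 0.22 in WstfΔ (log2 fold change -2.73, SE 0.39, adjusted p = 2.7e-06). Its WstfΔ libraries held 9 and 3 counts, and its log2 fold change ranged from -3.71 to -2.16 over the alternative fits. Of 13 genes of the LIF and STAT3 pathway none was a DEG, against 7.79% of all genes, and 4 were higher and 1 lower at the adjusted p alone.

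Some imprinted genes, which are read from 1 parental allele, were lower in WstfΔ. Of 31 tested, 9 were lower, none was higher and 22 were not called (median log2 fold change -0.42), against 3.16% lower over all genes. At the adjusted p alone 16 were lower and 3 higher, against 15.8% and 17.5% of all genes. Nnat, a paternally expressed proteolipid gene with the largest decrease of all DEGs above that minimum, had 10.2 and 12.3 in WT, 16.4 and 19 in Rsf1Δ and 0.361 and 0.878 in WstfΔ (log2 fold change -4.83, SE 0.31, adjusted p = 1.7e-12). Its WstfΔ libraries held 5 and 12 counts, and its log2 fold change ranged from -5.60 to -4.33 over the alternative fits. H19, a maternally expressed noncoding RNA (chr7:142575530-142578146), was graded over the groups: 190 and 191 in WT, 42.4 and 39.6 in Rsf1Δ, and 9.32 and 8.78 in WstfΔ (log2 fold change -2.18, SE 0.10). Igf2, its reciprocally imprinted neighbour, which falls outside the rule for named genes, was low in both lines, with 16.6 and 14.9 in Rsf1Δ and 13.7 and 14.1 in WstfΔ, against 91.7 and 94.2 in WT.

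At the imprinted Dlk1–Meg3 domain of chromosome 12, the noncoding RNA Meg3 had 175 in both Rsf1Δ libraries and 67.9 and 78.7 in WstfΔ (log2 fold change -1.25, SE 0.16), and Mirg of the same domain had 23 and 24.8 and 10.2 and 9.8 (-1.26, SE 0.15). Over the 11 WT libraries Meg3 ranged from 68 to 177. Peg10, a retrotransposon-derived gene needed for the placenta, had 886 and 1054 in WT, 537 and 553 in Rsf1Δ and 249 and 245 in WstfΔ (log2 fold change -1.14, SE 0.10), and only the WstfΔ libraries lay below the WT minimum of 276. Snrpn, a spliceosome gene of the Prader-Willi domain that shares its reads with Snurf, had 210 and 196 in Rsf1Δ and 92.6 and 92.1 in WstfΔ (log2 fold change -1.13, SE 0.06), and Usp29 had a log2 fold change of -1.29. Magel2 and Dlk1, the other called members, had -1.25 and -1.23. Grb10, a growth factor receptor adaptor, and Slc38a4, an amino acid transporter, were the highest members besides Peg10 and had log2 fold changes of 0.21 and 0.61, under the 2-fold minimum.

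Contractile genes and targets of YAP and SRF, which answer to cell tension and the actin cytoskeleton, were in part lower in both lines than in WT, and in part lower again in WstfΔ. Of 17 tested, 10 were below WT in WstfΔ and 11 in Rsf1Δ, against 1031 and 825 of all 15682 genes tested. Between the lines 6 were lower in WstfΔ, none was higher and 11 were not called (median log2 fold change -0.67), against 3.16% lower over all genes. Ankrd1, a classic YAP target, had 38.2 and 43.7 normalized CPM in WT, 5.84 and 6.07 in Rsf1Δ and 0.722 and 0.658 in WstfΔ (log2 fold change -3.10, SE 0.26, adjusted p = 4.7e-10). Smooth muscle actin, Acta2, had 33.7 and 35.5, 4.04 and 4.32, and 0.867 and 0.951 (log2 fold change -2.19, SE 0.29). The secreted matricellular factor Ccn2 had 302 and 293, 83.9 and 78.6, and 30.9 and 26.7 (log2 fold change -1.49, SE 0.07).

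Tagln, an actin-binding protein of smooth muscle, and Myl9, a myosin light chain, showed the same order with log2 fold changes of -1.95 and -1.89. Ccn1, the other called member, had -1.40. Cytoskeletal genes of higher level did not separate the lines to this extent: Flna had -0.17 (SE 0.10, adjusted p = 0.18), and Vcl and Cald1 were higher in WstfΔ by 0.35 and 0.53. For Ankrd1, Tagln, Myl9, Ccn1 and Ccn2 a WT library of batch A held the highest value among the 11 WT libraries, which ranged from 3.94 to 43.7 for Ankrd1 and from 92.1 to 302 for Ccn2. By their means, Rsf1Δ lay within the WT range for 5 of the 6 DEGs and below it for Ccn2, and WstfΔ lay below it for all 6.

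**Figure D4:**
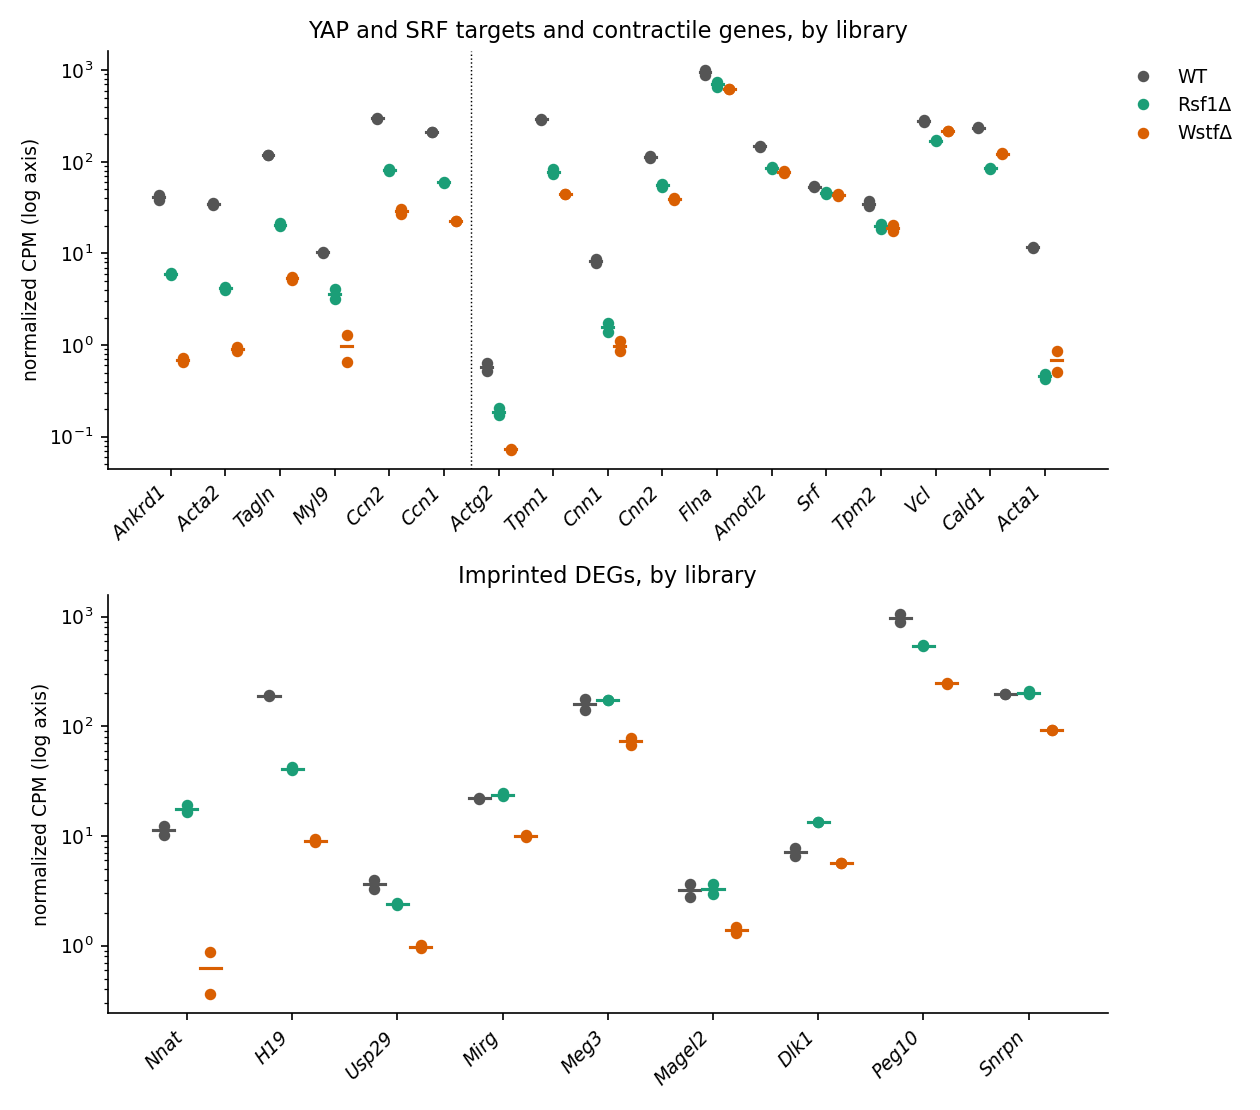
Normalized CPM (log axis) in the 2 WT, 2 Rsf1Δ and 2 WstfΔ libraries of batch A for the 17 contractile genes and YAP and SRF targets (top, with the 6 DEGs left of the dotted line) and for the 9 imprinted DEGs (bottom). Points are libraries and bars are means; in the 6 DEGs of the top panel the order is WT, Rsf1Δ, WstfΔ from high to low, while Nnat and Dlk1 of the bottom panel are higher in Rsf1Δ than in WT.

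Nodal and BMP signalling genes moved in both directions. Of 15 tested, 3 were higher in WstfΔ, 2 lower and 10 not called (median log2 fold change 0.35), against 4.62% higher and 3.16% lower over all genes. The Nodal antagonists Lefty1 and Lefty2, neighbours on chromosome 1, stood on either side of WT. Lefty2 (chr1:180893108-180899107) had 22.1 and 21.4 normalized CPM in WT, 8.12 and 7.69 in Rsf1Δ and 67.1 and 65 in WstfΔ (log2 fold change 3.06, SE 0.09, adjusted p = 1.7e-19), with both lines outside the WT range of 14.2 to 41.2. Lefty1 had 33 and 29.5, 14.1 and 13.9, and 52.5 and 49.5 (log2 fold change 1.87, SE 0.09).

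The ligand Nodal itself had a log2 fold change of -0.46 (SE 0.07, adjusted p = 9.1e-06), with 121 and 115 in Rsf1Δ and 87.8 and 84.1 in WstfΔ, opposite to its antagonists. Smad7, an intracellular inhibitor of the pathway, had 61 and 57.4 in Rsf1Δ and 144 and 146 in WstfΔ (log2 fold change 1.29, SE 0.07). The BMP target Id3 had 35.4 and 34.7 in Rsf1Δ and 13 and 13.4 in WstfΔ (log2 fold change -1.41, SE 0.10), with Rsf1Δ at the level of WT. Msx2 was lower by -1.03, and by -0.87 with an adjusted p of 0.0104 without Rsf1Δ replicate 1.

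Of 13 Wnt targets, 3 were lower in WstfΔ and none higher, against 3.16% and 4.62% of all genes. Lef1, a DNA-binding partner of β-catenin, had 6.7 and 6.59 in WT, 12.6 and 10.8 in Rsf1Δ and 0.289 and 0.658 in WstfΔ (log2 fold change -4.62, SE 0.29, adjusted p = 1.4e-12). Sp5 had a log2 fold change of -2.18 (SE 0.43), and Cdx1 one of -1.13 (SE 0.24), which became -1.03 with an adjusted p of 0.0117 without WstfΔ replicate 2. Tcf7, which encodes another β-catenin partner, had 0.22 (adjusted p = 0.023), and Ccnd1 -0.28. Of 13 FGF and ERK feedback genes, the immediate early gene Egr1 was the one DEG, against 7.79% of all genes. It had 29 and 26.7 in Rsf1Δ and 8.02 and 7.68 in WstfΔ (log2 fold change -1.83, SE 0.11). Over the 11 WT libraries Egr1 ranged from 5.95 to 28.3, a range that held both line means.

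Genes of cholesterol synthesis and of hypoxia and glycolysis mostly differed by less than 2-fold, and upward in WstfΔ. All 18 cholesterol synthesis genes had a log2 fold change above 0 (median 0.40), none was a DEG, and 14 were higher at the adjusted p alone, against 17.5% of all genes. Srebf2, the master regulator of the pathway, had 236 and 244 normalized CPM in Rsf1Δ and 350 and 344 in WstfΔ (log2 fold change 0.53, SE 0.07, adjusted p = 9.9e-07). Of 20 hypoxia and glycolysis genes, 3 were DEGs, all higher, against 4.62% of all genes, and 12 were higher and 1 lower at the adjusted p alone. Egln3, an oxygen-sensing prolyl hydroxylase, had 11.6 and 11.1 in Rsf1Δ and 55.6 and 50.1 in WstfΔ (log2 fold change 2.22, SE 0.10), Egln1 had 1.25 (0.98 without WstfΔ replicate 1) and the aldolase Aldoc 1.25.

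Of 15 p53 targets tested, 3 were DEGs, all higher in WstfΔ, against 4.62% of all genes, and 11 were higher and none lower at the adjusted p alone, against 17.5% and 15.8% (median log2 fold change 0.58). Ddit4l, an inhibitor of mTOR signalling, had 8.34 and 9.09 in WT, 5.67 and 6.43 in Rsf1Δ and 19.2 and 20.1 in WstfΔ (log2 fold change 1.70, SE 0.12). The pro-apoptotic Bbc3 and Phlda3 had 1.24 and 1.14, which fell just under the 2-fold minimum for Bbc3 and to 0.89 for Phlda3 with GC-centred offsets, and Trp53 itself had -0.03 (adjusted p = 0.82). WT lay between the lines for Phlda3, with 65.7 and 62 against 46.4 and 47.9 in Rsf1Δ and 99.9 and 107 in WstfΔ.

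Of 16 ATF4 stress genes, 1 was a DEG, Chac1, which degrades glutathione, lower by -1.23 (SE 0.12), and 9 were lower and none higher at the adjusted p alone, against 15.8% and 17.5% of all genes. None of 21 Polycomb genes, 19 genes of RNA polymerase I and the nucleolus, 11 MHC class I presentation genes or 13 basement membrane genes was a DEG, against 7.79% of all genes. At the adjusted p alone, 2 Polycomb genes were higher and 5 lower, and 3 MHC genes were higher and 1 lower. For basement membrane genes 4 were higher and 3 lower. Below WT were 6 basement membrane genes in WstfΔ and 7 in Rsf1Δ, against 1031 and 825 of all 15682 genes tested. For RNA polymerase I and the nucleolus, 10 were lower and 2 higher at the adjusted p alone, against 15.8% and 17.5% of all genes, with the abundant nucleolin gene Ncl at -0.07 (SE 0.08). Of 15 adhesion genes 2 were lower, against 3.16% of all genes, the splicing regulator Esrp1 by -1.73 (SE 0.09) and N-cadherin, Cdh2, by -1.69 (SE 0.26), while E-cadherin, Cdh1, had -0.38.

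Markers of other lineages are read against the 7.79% of all genes tested that were DEGs. Primitive endoderm genes had 3 DEGs of 14, all higher in WstfΔ: Cubn, Amn and Hnf4a. The endocytic receptor gene Cubn had 77.5 and 121 normalized CPM in WT, 40.2 and 42.8 in Rsf1Δ and 78.7 and 90.4 in WstfΔ (log2 fold change 1.03, SE 0.18), which fell under the 2-fold minimum without Rsf1Δ replicate 1 (0.98) or WstfΔ replicate 2 (0.92), and Hnf4a had 2.04 (SE 0.28). Summed over the 14 genes, the level was 319 and 324 in Rsf1Δ and 392 and 408 in WstfΔ, and 756 and 914 in WT. Over the 11 WT libraries Cubn ranged from 15.9 to 121 and Dab2, an endocytic adaptor, from 21.4 to 102, ranges that held both lines. At the adjusted p alone 6 of the 14 were higher and 2 lower, against 17.5% and 15.8% of all genes, with Dab2 higher by 0.44 (adjusted p = 0.000135). The early markers Sox17, Pdgfra, Gata6, Sox7 and Gata4 had log2 fold changes of the opposite sign to the DEGs, with -0.84 for Sox17 (adjusted p = 0.00055), -0.58 for Pdgfra (adjusted p = 0.00078) and between -0.31 and -0.28 for Gata6, Sox7 and Gata4, which did not pass the adjusted p. The part of endoderm-like cells in the differences above was not tested.

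Of 13 trophectoderm genes and simple keratins, Tead4 and Gata2 were higher and Krt23 and Cdx2 lower. The list summed to 531 and 526 in WT, 143 and 139 in Rsf1Δ, against 179 and 174 for WstfΔ. That sum includes Tead4 and Gata2, and the median log2 fold change of the list was -0.71. At the adjusted p alone 2 were higher and 4 lower, against 17.5% and 15.8% of all genes. Tead4, a DNA-binding partner of YAP, had 25.7 and 28.9 in WT, 15.3 and 15 in Rsf1Δ and 63.4 and 59.6 in WstfΔ (log2 fold change 2.02, SE 0.11, adjusted p = 1.2e-13). The simple keratin gene Krt8 had 183 and 181 in WT, 33.1 and 32.5 in Rsf1Δ and 26.4 and 23.2 in WstfΔ, with a log2 fold change of -0.40 between the lines. Over the 11 WT libraries Krt8 ranged from 35.9 to 183, so that both lines lay under the lowest of them, Rsf1Δ by little. Neural genes gave 1 DEG in each direction of 6 tested, Sox1 higher by 1.05 (SE 0.16), below the 2-fold minimum without Rsf1Δ replicate 2 or WstfΔ replicate 1, and Pax6 lower by -1.91 (SE 0.24). Over the 11 WT libraries Sox1 ranged from 3.11 to 13.6, a range that held both line means. Of 10 fibroblast genes, Mmp2 and Thy1 were higher by 1.36 and 1.03, with Thy1 under the 2-fold minimum without Rsf1Δ replicate 1 (0.98) or WstfΔ replicate 1 (0.95). The 10 genes summed to 55.1 and 61.7 in WT, 31.9 and 36.3 in Rsf1Δ, against 63.1 and 55.3 for WstfΔ, and the defining collagens Col1a1, Col1a2 and Col3a1 stood at 3.40 normalized CPM or less in both lines.

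Some of these calls rest on few counts. Krt23, Cdx2, Thrsp, Hoxb1, Eln, Vps37d, Usp17lc and Wnt8a had means under 3 normalized CPM in both lines and lost the adjusted p threshold in 2 to 7 of the alternative fits of each, with adjusted p up to 0.0814 for Cdx2 and 0.0604 for Usp17lc. The losses came from leaving out single libraries, for Krt23, Thrsp, Cdx2 and Hoxb1 also from a replicate block, for Vps37d from a replicate block with GC-centred offsets, and for Krt23, Thrsp and Cdx2 also from another form of the test. Krt23 and Hoxb1 had 0 counts in both WstfΔ libraries. Hoxb1, the one DEG of 14 Hox genes, was at least 2.49-fold higher in Rsf1Δ, taking 3 counts per WstfΔ library as the floor. Wnt8a was the one DEG of 12 primitive streak genes. Of 7 genes of the 2-cell-like state, Zscan4d was lower as well, with 3.09 and 2.61 in Rsf1Δ and 0 and 0.585 in WstfΔ, and both Zscan4d and Usp17lc belong to families of near-identical copies.

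Neighbours of the deleted genes are read against the same 7.79%. Of 22 tested genes listed for the Williams region, which holds Baz1b, Vps37d was higher and Eln lower, and Eif4h, the highest, had 0.06 (SE 0.05). Fkbp6, described with the germline genes, lies in the same region, was not on that list and was lower in WstfΔ by -2.80. Of 18 neighbours of Rsf1, Capn5 and Thrsp were higher in WstfΔ and Pak1 lower, and the protease gene Capn5 went from 26.7 and 25.8 normalized CPM in Rsf1Δ, where WT had 28.3 and 28.6, to 58.7 and 52.8 in WstfΔ. With GC-centred offsets, described with GC content, Pak1 and Capn5 fell just under the 2-fold minimum.

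Over chromosomes, median log2 fold changes lay between -0.04 and 0.09 on the autosomes. The X chromosome had a median of -0.12, and medians against WT of -0.24 in WstfΔ and -0.08 in Rsf1Δ. Of its 552 genes, 8 were higher and 36 lower in WstfΔ, against 4.62% and 3.16% of all genes. In either direction 7.97% of them were called, against 7.79% of all genes. Of 4 tested genes of the Y chromosome, 3 separated the lines, and the other, Uba1y, had 41 and 44 counts in WT and 0 in all libraries of both lines. Eif2s3y had 68.1 and 65.2 normalized CPM in WT, 43.1 and 38.6 in WstfΔ and 0 counts in both Rsf1Δ libraries, so that it was at least 326-fold higher in WstfΔ, taking 3 counts per library as the floor. Uty was at least 152-fold higher on the same floor, and Ddx3y, with 2 counts in all in Rsf1Δ, had a ratio of 1314 with a counting interval of 363 to 10860. These intervals and floors cover counting error only. The 7 X-linked partners of such genes gave no DEG, and Ddx3x had -0.52 (SE 0.06, adjusted p = 2.2e-07), with 1283 and 1270 in Rsf1Δ and 898 and 877 in WstfΔ.

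One run of neighbouring genes separated the lines on an autosome. Along each chromosome, genes of at least 8 normalized CPM were ordered and a running median of 15 log2 fold changes was taken. On chromosome 6, 24 successive genes from Chmp3 to Gcfc2 (chr6:71543831-81959098) had a running median of at least 0.5, and no other stretch of 10 or more genes did in either direction. The median over the run was 0.83, and 23 of the 24 genes were higher in WstfΔ, 8 of them DEGs. Rsf1Δ had moved: the median over the run was -0.90 against WT in Rsf1Δ and -0.07 in WstfΔ.

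Tgoln1, a Golgi protein, had 111 and 114 normalized CPM in WT, 42.4 and 46.0 in Rsf1Δ and 113 and 107 in WstfΔ. Tcf7l1, a repressor of Wnt targets in mESCs, had 75.7 and 72.1, 40.8 and 34.6, and 80.8 and 84.2, and Tmsb10, which binds actin monomers, had 176 and 195, 81.8 and 73.0, and 209 and 191. Eif2ak3, Krcc1 and Rmnd5a, which precede the run directly, had log2 fold changes of 1.27, 1.10 and 1.20, and Gcfc2 at its end had -0.37. The run was chosen by these values, so they are a description.

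**Figure D5:**
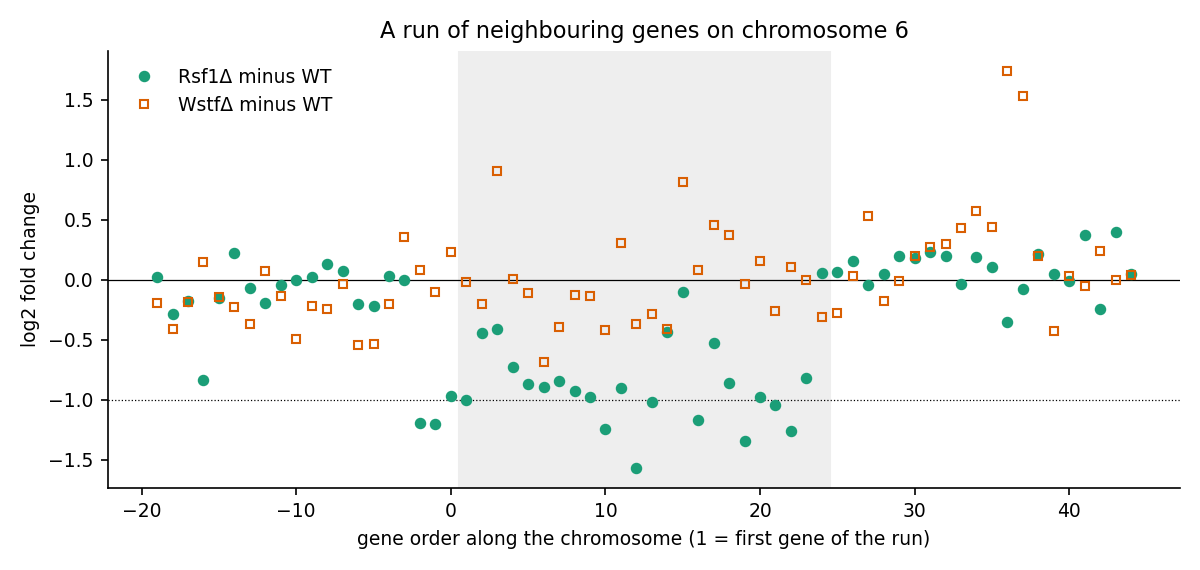
Log2 fold change against WT of Rsf1Δ (filled circles) and WstfΔ (open squares) for the genes of the chromosome 6 run (grey, 24 genes) and 20 genes on each side, in gene order. Within the run most Rsf1Δ points lie near the dotted line at a log2 fold change of -1, and the WstfΔ points lie around 0.

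GC content of the transcript moved with the comparison. A value was found for 94.4% of the genes tested, and the median GC content was 53.8% in DEGs higher in WstfΔ, 48.7% in those lower and 50.2% in all genes tested. In 5 equal groups of genes from low to high GC content the median log2 fold change was -0.08, -0.02, -0.01, 0.04 and 0.14, and the share of genes called higher in WstfΔ went from 1.35% to 8.48%. The medians of the lowest and the highest group were -0.12 and 0.18 for WstfΔ against WT and -0.04 and 0.08 for Rsf1Δ against WT. With each library centred within 20 bins of GC content, 672 genes were higher and 512 lower in WstfΔ, and 1123 of the 1221 DEGs were called in the same direction. Under the same centring the numbers of genes lower in WstfΔ were 7 for germline, 9 for imprinted, 6 for contractile and 6 for formative genes, and 1 p53 target was higher in place of 3.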

How the data were processed

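Gene-level RNA-seq counts of 24 libraries were used as the authors deposited them, raw and not normalized. Per the study's methods, reads were aligned to mm10 with QuasR in its spliced mode, which the submitters' notes list with HISAT2 and bcl2fastq 2.17, and counted per UCSC knownGene gene. The labels and the methods name different library kits, so that the strand setting of the counting is not settled here, and overlapping, antisense and multicopy genes are uncertain. A gene width column from the authors served only for a check of width. No deposited column outside the labelled samples was used.

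Of 24594 genes, 15682 passed edgeR's filterByExpr. Counts were scaled by TMM and fitted with edgeR 4.0.16 (R 4.3.3, quasi-likelihood, 24 libraries, batch and genotype as terms), with Benjamini-Hochberg adjustment over all genes tested. Every adjusted p is from this fit unless another is named. Batch A holds only WT, Rsf1Δ and WstfΔ, 2 libraries each, so that other batches enter through the shared dispersion and through the set of genes tested, and not through the group means. DEGs had a log2 fold change beyond 1 in size and an adjusted p under 0.01. Normalized CPM is counts-per-million by TMM-scaled library size. Replicates are libraries of 1 clone, described in the methods as independent, and p-values measure only the spread between them. Both comparisons with WT share the WT libraries. Scripts were tested on simulated data.

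Named genes were the targets, up to 5 DEGs by fold change and the 3 highest members of each of 31 lists, the 12 largest DEGs per direction with at least 5 normalized CPM in the higher line, and the 6 highest DEGs per direction. Other list members, Igf2 and the genes of the chromosome 6 run were added after their values were seen. The comparison, lists and members were chosen with earlier results of these data known. Promoters and gene coordinates are from RefSeq (24570 gene IDs matched), and GC content is that of the longest transcript of each gene. Alternatives were another set of libraries, DESeq2 1.42.0, another scaling, filter, fold minimum or quasi-likelihood form, a replicate block, leaving out each library or the Y-linked genes, and, added after seeing the data, GC-centred offsets and leaving out runs of neighbouring genes. Same-numbered libraries deviated together weakly over 10739 genes (r = 0.0789 for WstfΔ and Rsf1Δ, 0.0104 for WstfΔ and WT, and 0.16 for Rsf1Δ and WT). Results for 2 genes that the rule for named genes selects are not reported here.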

Additional observations from a re-analysis of the deposited data

Results flagged for a closer look

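In each of 12 genes given here, both lines differed from WT past the DEG thresholds, in opposite directions. The genes were chosen by those calls, so a large direct difference follows from the choice and is no further test. As log2 fold changes of WstfΔ over Rsf1Δ, the 8 genes above WT in WstfΔ and below it in Rsf1Δ were Lefty2 (3.06), the keratin gene Krt17 (3.04), the actin-associated Synpo (2.95), the noncoding 2310043M15Rik (2.89), Arhgap30 (2.65), the microvillus gene Vil1 (2.42), Ccdc68 (2.35) and the ligand gene Wnt6 (2.27). The 4 genes below WT in WstfΔ and above it in Rsf1Δ were Dmrt1 (-2.19), Neurog3 (-2.76), Fkbp6 (-2.80) and Ccno (-4.75). These calls are against WT of batch A: against the range of all 11 WT libraries, Ccdc68 in Rsf1Δ (1.06, range 0.761 to 4.49) and Neurog3 in WstfΔ (1.13, range 0.575 to 4.49) lay within it by their mean normalized CPM, and the other 10 genes lay outside it in both lines.

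Dmrt1, a regulator of sex determination and germ cells, had the highest level of the 12, with 54 and 53.5 normalized CPM in WT, 115 and 109 in Rsf1Δ and 24.6 and 24.4 in WstfΔ. Krt17 had 11.9 and 9.69 in WT, 3.09 and 2.89 in Rsf1Δ and 24.1 and 25 in WstfΔ. In both genes the lines stood clear of WT and of each other in every library. The lines stood clear of each other in 75.5% of the genes tested.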

How the results depend on the processing

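Of the counts of DEGs and of the germline, imprinted, formative and contractile groups, those that moved by over 1.5 times did so with the fold minimum. Without a fold minimum there were 5218 DEGs (2740 higher and 2478 lower in WstfΔ), of which 2551 also differed from WT in WstfΔ alone, 805 in Rsf1Δ alone, 819 in both and 1043 in neither; 8 formative and 16 imprinted genes were lower. Tested against a 2-fold change there were 273 (164 higher, 109 lower), with 2 formative, 4 germline and 2 imprinted genes lower. DESeq2 gave 1150 DEGs and batch A alone 1295. Same numbers in the labels mark no stated pairing; with a replicate block there were 1144 DEGs (684 higher, 460 lower), 1135 of them shared with the fit without it.

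Leaving out each library in turn gave 983 to 1209 DEGs, 622 to 718 higher and 361 to 492 lower, with 478 to 549 also differing from WT in WstfΔ alone, 115 to 136 in Rsf1Δ alone, 71 to 87 in both and 313 to 457 in neither. The groups had 4 to 5 formative, 7 to 9 germline, 8 to 10 imprinted and 6 contractile genes lower, and log2 fold changes were -2.44 to -2.28 for Baz1b and 2.42 to 2.44 for Rsf1. Without 1 library of a line, the lone library is assumed to vary like the other groups. No result reversed. Depth limits genes under 3 normalized CPM most, since the WstfΔ libraries were the shallowest.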
